A study of Oryza sativa Japonica Group with 6 samples.

Results

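The genes described here are those that copy DNA and drive the cell cycle in the developing rice seed: the MCM helicase, the origin recognition complex, the sliding clamp PCNA and its loader RFC, the single-strand binding protein RPA, the cyclins of classes A, B and D, and the cyclin-dependent kinases (CDK). They were chosen by name, as genes whose symbol or synonym starts with one of these names, with a leading Os ignored, among rice probe sets that map to exactly 1 gene. A probe set is the group of array probes that measures 1 transcript, and where a gene had several the one with the highest mean over the arrays was used. This gave 53 genes of the 17905 that had such a probe set, and 67 probe sets in all. Of 60 genes of the gene table that carry such a name, the other 7 (CDKB1-1, CDKC-2, CDKF-2, CYCA3-1, CYCB1-5, CYCD2-1 and ORC6) had no probe set of 1 gene here, and 0 genes of that table had a name starting with E2F, so E2F factors are not analysed here.

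RNA of developing seeds of rice (Oryza sativa Japonica Group) was measured on Affymetrix rice genome arrays. Of 6 arrays, 3 were of plants given additional ammonium chloride (NH4Cl), 400 mg per container sprayed onto the soil at heading and bloom, and are labelled 15 days after flowering. The other 3 were of control plants without it, whose seed age was not given in the sources used here. Plants of both groups received fertilizer at planting and on day 37 after germination, and grew at 28 and 22 °C by day and night. Seeds came from 6 plants, although the extraction protocol in the labels speaks of pooled seedlings. The sample titles call the 3 arrays of each group biological replicates, without saying which plants each one holds, and the cultivar is not stated.

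In every round of division, DNA replication starts where the origin recognition complex has loaded the MCM2 to MCM7 hexamer, the helicase that unwinds DNA. PCNA then rings the DNA behind the fork and holds the polymerases, RFC opens and closes that ring, and RPA coats the single strands. Cyclins D, A and B act in that rough order from growth through DNA synthesis to mitosis, as the regulatory partners of CDKA and of the plant-specific CDKB kinases. In cereal seeds the endosperm first divides and then switches to rounds of replication without division while it fills with starch and storage protein.

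Expression was taken from the deposited table, whose values run from 4.96 to 13.51 and were treated as log2. The 6 arrays were nearly alike. The SD over them had a median of 2.25 millionths of a log2 unit among all rice probe sets and of 7.36 millionths among the 53 genes. Among the 17905 genes, each likewise taken with its brightest probe set, it was 13.99 millionths, so the 53 genes varied less than those. Such values cannot be read as fold changes of RNA. All values on single arrays below are the deposited log2 value minus the control mean of the same probe set, in millionths of a log2 unit; all differences are additional NH4Cl minus control in the same unit, with their SE (n = 3 per group). Beside them stands the difference divided by the within-group SD of that probe set, which does not depend on its scale. The first principal component of all rice probe sets, with 26.54% of the variance, separated the groups, with additional NH4Cl replicates 1, 2 and 3 at -182.3, -89.97 and -37.3 and the control arrays between 84.7 and 131. Along the second component additional NH4Cl replicate 3 stood apart at -217.7, with the other 5 arrays between -4.66 and 103.4.

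As deposited, 36 of the 53 genes (67.9%) had a lower mean with additional NH4Cl and 17 a higher one, against 49.6% lower among all 57194 rice probe sets. Of the 53 genes 0 passed limma's moderated test after Benjamini-Hochberg adjustment over all rice probe sets, where 4 passed (0.00699%), and the adjusted p of the 53 genes ran from 0.121 to 1.00. At an unadjusted p under 0.05, 11 of 53 were lower (20.8%, against 5.96% of all rice probe sets) and 1 was higher (5.09% of all). The 3 additional NH4Cl arrays all lay below the 3 control arrays for 16 of 53 genes (30.2%, against 8.99% of all) and all above for 1 (8.42% of all). The median moderated t was -0.88, against 0.01 over all rice probe sets.

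Against the 17905 genes, each taken likewise with its brightest probe set, the distance was smaller. Of these 55.4% were lower and 44.6% higher, 10.8% were lower and 6.22% higher at an unadjusted p under 0.05, 14.2% lay wholly below control and 8.8% wholly above, and 0.0223% passed. Their median t was -0.19. After quantile normalization 35 of 53 were lower (38.3% of all rice probe sets). The share among the 17905 genes in that run is not given here. The remaining probe sets were not all higher, as ORC3 had no difference there. Centring each array on its median adds 123 millionths to the difference of every probe set, more than the size of 51 of the 53 differences. By construction 2 of 53 were then lower (4.41% of all). As deposited, all rice probe sets had a median difference of 0.00567 millionths and a median absolute difference of 1.41. The shift that centring adds is thus far larger than the difference of a typical probe set. The median t after centring was 4.35 for the 53 genes and 4.53 over all rice probe sets. Without additional NH4Cl replicate 3, the array that stood apart, 38 genes were lower as deposited and 20 lay wholly below control. Groups of fewer arrays lie apart more easily, and the share over all rice probe sets in that run is not given here. The count of 20 therefore cannot be read as a clearer separation.

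The seed label was checked on marker genes. Of 10 endosperm markers 9 lay above the brightest of 64 control probe sets for reporter genes, which has a level of 6.07, and their levels reached 13.51. The exception was the glutelin GLUB-4 at 5.36. All 9 embryo and aleurone markers (8.59 to 12.83) and 3 of 4 green tissue markers (5.17 to 11.37) also lay above it. Of the markers 6 of 10, 6 of 9 and 4 of 4 had a higher mean with additional NH4Cl as deposited, and 0 passed in limma's test, with 2 endosperm markers and 0 of the others at an unadjusted p under 0.05. The additional NH4Cl arrays lay wholly above control for 4 of 10 endosperm markers (GLUA-1, GLUA-3, GLUB-5 and prolamin, by 0.17 to 16.5 millionths) and wholly below for 1, the sugar transporter SWEET11 at -11.9, against 8.42% and 8.99% of all rice probe sets. In the other marker lists the groups overlapped. The summed linear signal of the 4 green tissue markers stood 114 to 639 millionths above its control mean on the additional NH4Cl arrays, and at -262 to 284 on the control arrays. For the embryo and aleurone list it was -261 to 363 with additional NH4Cl and -141 to 166 in control, and for endosperm 0.56 to 0.893 and -0.669 to 0.664. The 27 probe sets of the hybridization spike-ins were higher with additional NH4Cl too, by a median of 964 millionths. The part of these tissues and of the spike-ins in the values below was not tested, and in whole seeds fewer dividing cells and less RNA per cell cannot be told apart.

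All 6 subunits of the MCM2 to MCM7 hexamer had a lower mean with additional NH4Cl as deposited, whereas after quantile normalization 2 of 6 were lower and after median centring 0. MCM2 (LOC4350526, level 5.95) stood at -100.3, -56.4 and -74.5 with additional NH4Cl and at 21.6, 7.65 and -29.3 in control. The groups did not overlap, and the difference was -77.1 (SE 19.8), or -3.18 within-group SDs (adjusted p of 0.283 with limma). It was 45.5 after median centring and -209.6 after quantile normalization, where MCM2 passed as lower (adjusted p of 0.031). In that same run MCM5 passed as higher, at 48.4 (adjusted p of 1.15e-07 with limma).

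The hexamer's other subunits differed by fewer millionths. MCM3 differed by -23.6 (SE 7.56), MCM4 by -5.34 (SE 1.53), MCM6 by -4.03 (SE 1.86) and MCM7 by -0.760 (SE 0.299), and for each of these the additional NH4Cl arrays lay wholly below control as deposited. MCM5 was the exception, with -5.69 (SE 3.61) and groups that overlapped, control replicate 3 lying below 2 of the additional NH4Cl arrays. As deposited 5 of 6 subunits lay wholly below control, against 8.99% of all rice probe sets and 14.2% of the 17905 genes. For MCM6 and MCM7 the margin was narrow. Their highest additional NH4Cl arrays stood at -1.51 and -0.337, and their lowest control arrays at -0.973 and -0.264. In within-group SDs the 6 subunits ran from -3.18 to -1.29. Without any single array, all 6 remained lower as deposited. All 6 had levels between 5.54 and 5.95, below the 6.07 of the brightest reporter control.

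MCM8 and MCM9, which share the MCM fold but work in DNA repair in animals and in Arabidopsis, had mixed arrays as deposited on their brightest probe sets. MCM9 (LOC4340503, level 6.00) stood at -0.930, -0.354 and 1.5 with additional NH4Cl and at 0.740, -1.37 and 0.626 in control. Its arrays were fully mixed, with a difference of 0.0727 (SE 1.00), and MCM8 differed by 0.0200 (SE 1.48). Both were measured with probe sets that can bind several transcripts and are uncertain. The other probe set of MCM8, which is not of that kind, stood at -3.92 (SE 2.10) with overlapping groups and turned the direction, and the mean of both was -1.95.

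Among the origin recognition genes, which mark the sites where replication begins, 3 of 5 were lower as deposited, 1 after quantile normalization and 0 after median centring. As deposited 1 of 5 lay wholly below control, near the share of 14.2% among the 17905 genes (8.99% of all rice probe sets). ORC2 (LOC4331860), at 6.90 the brightest of them, stood at -1.44, -3.76 and 7.10 with additional NH4Cl and at -2.18, -2.22 and 4.40 in control. Its groups overlapped and the difference was 0.635 (SE 3.97). ORC4 (LOC4324139), on an uncertain probe set, had the largest t of the class and stood at -7.01, -5.22 and -2.33 with additional NH4Cl and at 5.41, -4.20 and -1.21 in control. Its difference was -4.85 (SE 3.15), or -1.26 SDs (adjusted p of 0.671), and control replicate 2 lay among the additional NH4Cl arrays. ORC1 differed by -1.64 (SE 2.98) and ORC5, which the gene table also lists under the name OsORC1, by 1.26 (SE 1.46). ORC3, the one that did not overlap, differed by -0.495 (SE 0.262), and quantile normalization left no difference in it. ORC1, ORC3, ORC4 and ORC5 lay below the brightest reporter.

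PCNA (LOC4331062, level 6.93) had the largest absolute t of the 53 genes. Its values stood at -16.5, -18.8 and -16.5 with additional NH4Cl and at -3.48, 1.53 and 1.95 in control. The 3 additional NH4Cl arrays lay close together and wholly below control. The difference was -17.3 (SE 1.91), or -7.40 SDs (unadjusted p of 0.000405, adjusted p of 0.121), and it did not pass. With median centring it became 105, and with quantile normalization -156.

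For the clamp loader, 4 of 5 subunits were lower as deposited, 4 of 5 after quantile normalization and 0 after median centring. The large subunit RFC1 (LOC4350754, level 6.87) had both the highest mean and the largest t, and stood at -55.3, -44.0 and -26.7 with additional NH4Cl and at 8.56, -24.3 and 15.7 in control. Its groups came close without overlapping, the difference was -42.0 (SE 14.8) (adjusted p of 0.404), and it turned to 247 after quantile normalization. RFC5 differed by -28.1 (SE 11.9), RFC4 by -1.81 (SE 3.65) and RFC3 by -0.703 (SE 0.271), all with overlapping groups. RFC2 was higher at 50.4 (SE 118), which rested on additional NH4Cl replicate 3: without that array its difference was -48.2.

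RPA is built of a large, a middle and a small subunit, named here by their size as RPA70, RPA32 and RPA14. Of its 7 genes 6 were lower as deposited, 4 after quantile normalization and 0 after median centring. As deposited 4 of 7 lay wholly below control, against 8.99% of all rice probe sets and 14.2% of the 17905 genes. RPA32C (LOC9266781, level 5.84) stood at -8.11, -7.20 and -5.98 with additional NH4Cl and at -0.263, -0.622 and 0.884 in control. The difference was -7.10 (SE 0.766), or -7.57 SDs (unadjusted p of 0.000417, adjusted p of 0.121), so every additional NH4Cl array lay far below control in units of its own spread, at a level below the brightest reporter.

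The other middle subunits pointed the same way. RPA32A differed by -36.3 (SE 9.20) and RPA32B by -14.5 (SE 7.71), both without overlap. For RPA32B the margin was very narrow, with additional NH4Cl replicate 1 at -1.42 and the lowest control array, replicate 2, at -1.36. All 3 RPA32 genes were also lower after quantile normalization and higher after median centring. RPA14 (LOC4327706, level 7.88), the brightest, stood at -28.0, -19.5 and -48.9 with additional NH4Cl and at -8.51, 26.5 and -18.0 in control. Its groups did not overlap by a narrow margin, with a difference of -32.2 (SE 16.1) (adjusted p of 0.559) that became 621 after quantile normalization. Of the large subunits RPA70A differed by 1.16 (SE 3.21), RPA70B by -1.70 (SE 0.709) and RPA70C by -26.1 (SE 43.9), all with overlapping groups.

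**Figure D1:**
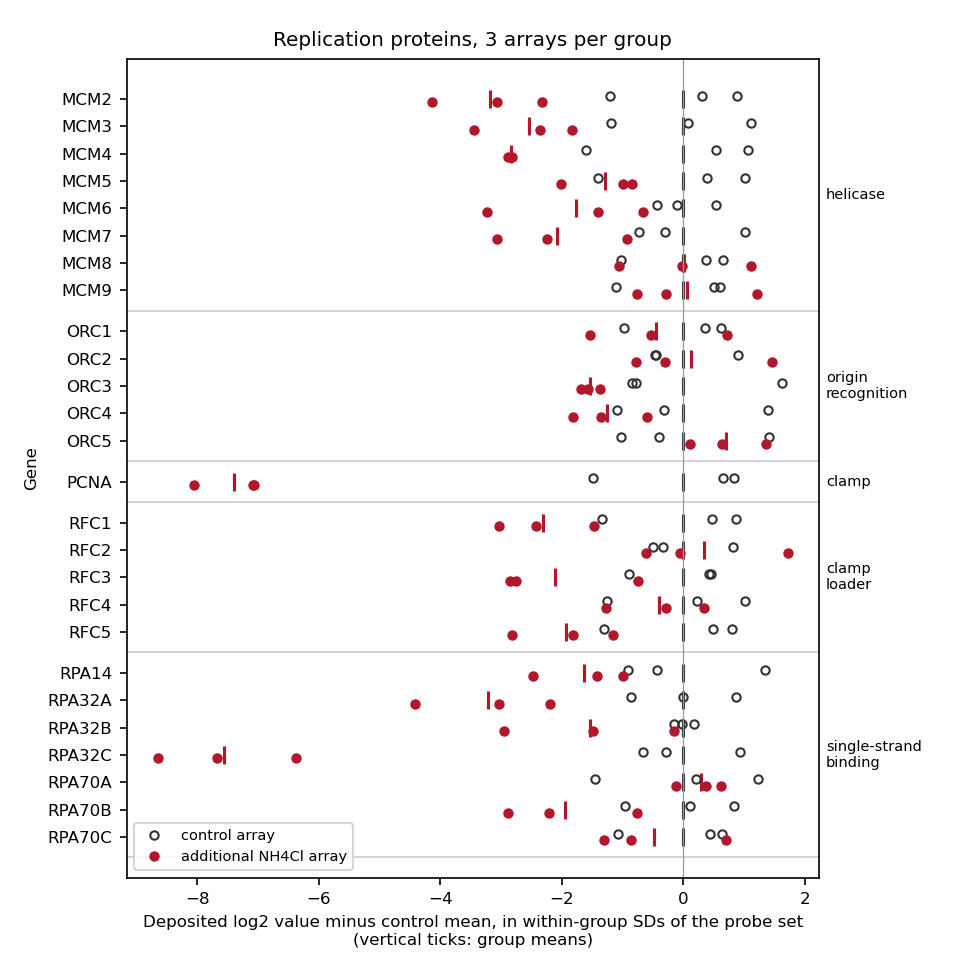
Each point is 1 array, plotted as its deposited log2 value minus the control mean of the same gene, in within-group SDs (x axis), for the 26 replication genes (y axis), with additional NH4Cl filled and control open, and vertical ticks for the group means. PCNA and RPA32C lie farthest to the left at -7.40 and -7.57, MCM2 to MCM7 lie between -3.18 and -1.29, and MCM8, MCM9 and most ORC genes overlap control (MCM8 on its uncertain probe set, the other one standing at -3.92 millionths); all 26 stand higher than control after median centring.

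Among the A-type cyclins, which partner CDKs in DNA synthesis and early mitosis, 2 of 3 were lower both as deposited and after quantile normalization and 0 after median centring. CYCA3-2 (LOC4352642, level 5.96) stood at -24.0, -18.9 and -23.9 with additional NH4Cl and at -4.90, -0.0773 and 4.97 in control. Its groups lay far apart, with a difference of -22.3 (SE 3.31), or -5.50 SDs (unadjusted p of 0.00139, adjusted p of 0.160), which did not pass. CYCA2-1 differed by -6.34 (SE 2.45), also without overlap. CYCA1-4 (LOC4338177), at 6.21 the brightest of the class, stood at -5.17, 5.64 and 9.51 with additional NH4Cl and at 2.72, 1.72 and -4.44 in control. Its arrays were mixed and the difference was 3.33 (SE 4.93). CYCA3-2 and CYCA2-1 lay below the brightest reporter.

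In 0 of the 4 B-type cyclins, which drive entry into mitosis, did the groups lie apart as deposited. Of the 17905 genes 14.2% lay wholly below control and 8.8% wholly above, so 0 of 4 is near this background. CYCB1-1 (LOC4327547, level 6.36) stood at -16.1, -4.87 and -7.26 with additional NH4Cl and at 7.02, 14.2 and -21.2 in control, and control replicate 3 was the lowest of its 6 arrays. The difference was -9.41 (SE 11.3) (adjusted p of 0.867). CYCB2-2 (LOC4342121, level 5.59), with the largest t of the class, stood at -10.2, -1.61 and -0.210 with additional NH4Cl and at 3.51, -6.04 and 2.53 in control. It differed by -4.00 (SE 4.35), and CYCB2-1 by -9.21 (SE 11.3), both with mixed arrays. CYCB1-3, also listed under the name CycB1-1, stood at 0.00900 (SE 0.240), which is 0.0306 SDs. After quantile normalization all 4 were lower, CYCB1-3 passing at -48.9 (adjusted p of 1.11e-07).

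The D-type cyclins, which link growth signals to the start of the cycle, held the largest differences of the 53 genes. CYCD5-3 (LOC4331985, level 7.40) stood at -1546, -1837 and -1299 with additional NH4Cl and at 351, 388 and -739 in control. All 3 additional NH4Cl arrays lay below the lowest control array, replicate 3. The difference was -1561 (SE 401), or -3.18 SDs (adjusted p of 0.282). It did not pass as deposited, was -1789 after quantile normalization (adjusted p of 0.0696), and passed after median centring at -1438 (adjusted p of 0.00759). After median centring 89.8% of all rice probe sets passed. With any 1 array left out the deposited difference ran from -1930 to -1367.

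CYCD5-2 (LOC4352668), at 7.66 the brightest cyclin, stood at -197, -358 and -484 with additional NH4Cl and at 36.4, 88.6 and -125 in control. The groups did not overlap, and the difference was -346 (SE 105), or -2.69 SDs (adjusted p of 0.341). It stayed negative after median centring at -224 (adjusted p of 0.0415 with limma), in the run where 89.8% of all rice probe sets passed. After quantile normalization it was 253. These 2 genes were the only ones of the 53 whose difference exceeded the 123 millionths that median centring adds. The third gene of that subgroup, CYCD5-1, was dim at 5.67 and differed by -0.184 (SE 1.31).

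In the remaining 6 D-type cyclins the groups overlapped. CYCD2-2 differed by -15.9 (SE 10.5), CYCD6-1 by -11.1 (SE 18.4), CYCD4-2 by -1.14 (SE 3.92) and CYCD3-1 by -0.206 (SE 11.8). CYCD3-2 was higher by 5.91 (SE 6.04) and CYCD4-1 by 26.2 (SE 68.4), the latter spread from -90.7 to 121 over the 3 additional NH4Cl arrays. As deposited 7 of 9 D-type cyclins were lower, 7 after quantile normalization and 2 after median centring.

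The main cell cycle kinases did not separate: 2 of 3 were lower as deposited, 3 after quantile normalization and 0 after median centring. The arrays of the groups overlapped in 3 of 3. This is near the background, as 14.2% of the 17905 genes lay wholly below control and 8.8% wholly above. CDKA-1 (LOC4331415, level 8.24), of the class that carries the cycle in plants, was measured with an uncertain probe set and stood at -101, -21.5 and -34.3 with additional NH4Cl and at 68.9, -14.2 and -54.6 in control. Its arrays were mixed and the difference was -52.2 (SE 43.9) (adjusted p of 0.769). CDKB2-1 (LOC4346016, level 6.49), of the class that peaks around mitosis, stood at -23.6, -8.74 and -42.8 with additional NH4Cl and at 12.3, 21.6 and -33.9 in control. Control replicate 3 again lay among the additional NH4Cl arrays, and the difference was -25.1 (SE 19.8), or -1.03 SDs. CDKA-2, also uncertain, differed by 13.1 (SE 22.0), with values from -27.7 to 47.3 over the 3 additional NH4Cl arrays.

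Kinases of the remaining classes act mostly outside the cycle itself: CDKC in transcript elongation, CDKD and CDKF in activating other CDKs, CDKE with the Mediator complex, and CDKG in splicing and meiosis, roles known best from Arabidopsis. As deposited 6 of 8 were higher, against 50.4% of all rice probe sets, whereas after quantile normalization 2 of 8 were. CDKF-3 (LOC4334774, level 7.13) was the only one of the 53 genes that lay wholly above control. It stood at 10.4, 2.73 and 7.43 with additional NH4Cl and at -0.404, -0.665 and 1.07 in control, with a difference of 6.87 (SE 2.31), or 2.43 SDs (adjusted p of 0.386), and turned to -5.79 after quantile normalization.

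CDKG-2 (LOC4336224), at 8.45 the brightest of all 53 genes, stood at 87.3, -65.7 and 51.9 with additional NH4Cl and at -35.5, -148 and 184 in control. Control replicates 2 and 3 were its lowest and highest arrays, so the difference of 24.5 (SE 108) lay well within the spread. CDKC-1 differed by 2.34 (SE 1.63), CDKE-1 by 3.16 (SE 4.46), CDKF-1 by 0.119 (SE 0.189) and CDKG-1 by 1.69 (SE 21.7). The lower ones were CDKF-4 at -17.4 (SE 7.42) and CDKD-1 at -9.18 (SE 16.6). All of these had overlapping groups.

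**Figure D2:**
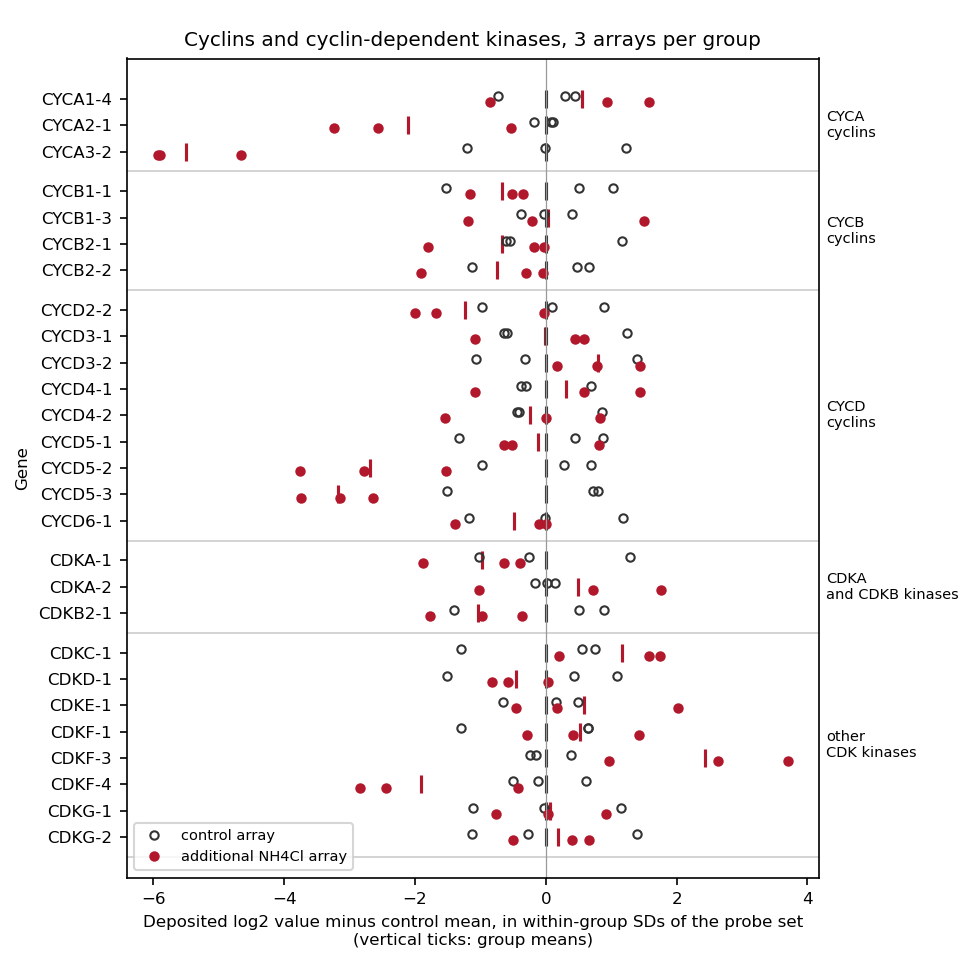
Each point is 1 array, plotted as its deposited log2 value minus the control mean of the same gene, in within-group SDs (x axis), for 16 cyclin and 11 kinase genes (y axis), with additional NH4Cl filled and control open, and vertical ticks for the group means. CYCA2-1, CYCA3-2, CYCD5-2 and CYCD5-3 lie wholly to the left of control and CDKF-3 wholly to the right as deposited; CYCD5-2 and CDKF-3 change side after quantile normalization, and CYCA2-1 and CYCA3-2 after median centring.

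By role, the replication proteins were lower for 20 of 26 genes as deposited, with a median of -1.59 within-group SDs, and 12 of 26 lay wholly below control. The cyclins were lower for 12 of 16, with a median of -0.58 SDs and 4 without overlap. The kinases were lower for 4 of 11, with a median of 0.185 SDs, and 0 lay wholly below control. Wholly below control lay 8.99% of all rice probe sets and 14.2% of the 17905 genes, against 46.2% of the replication proteins, 25% of the cyclins and 0% of the kinases. This order of the classes did not hold after quantile normalization. There 3 of 8 helicase, 1 of 5 origin recognition and 4 of 7 RPA genes were lower. PCNA and 4 of 5 clamp loader genes were lower too. So were 2 of 3, 4 of 4 and 7 of 9 cyclins of classes A, B and D. Of the kinases, 3 of 3 of CDKA and CDKB and 6 of 8 of the remaining classes were lower. After median centring 2 genes were lower, both D-type cyclins. These counts describe the lists, and whether the classes differ was not tested.

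Levels differed between the classes too, each level being that of a probe set and not comparable as RNA amounts. All 11 kinases lay above the brightest reporter, as did 11 of 26 replication proteins and 7 of 16 cyclins. Among the 29 genes above it, 17 were lower as deposited and 6 lay wholly below control (20.7%). Among the 24 genes at or below it, 19 were lower and 10 lay wholly below control (41.7%). Of all rice probe sets 8.99% did so and of the 17905 genes 14.2%, and the difference between the brighter and the dimmer genes was not tested. The plot of difference against level shows that 51 of the 53 genes differed by less than the shift of median centring.

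**Figure D3:**
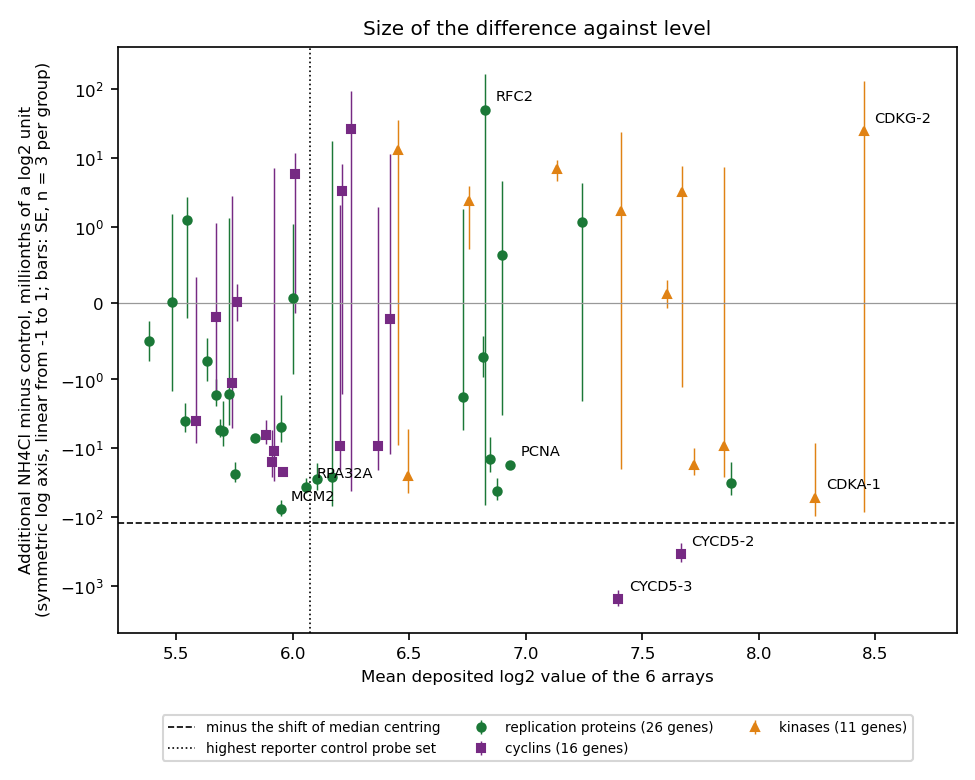
Each point is 1 of the 53 genes, with its mean deposited log2 value on the x axis and additional NH4Cl minus control in millionths of a log2 unit on the y axis, a symmetric log scale that is linear from -1 to 1; bars are SE (n = 3 per group). CYCD5-2 and CYCD5-3 alone lie below the dashed line, which marks minus the 123 millionths that median centring adds, and the dotted line marks the brightest reporter at 6.07.

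On single arrays, additional NH4Cl replicates 1, 2 and 3 lay below the control mean for 39, 42 and 35 of the 53 genes as deposited. The median over the 53 genes was -1.08, -0.661 and -0.75 within-group SDs on these arrays, and 0.283, -0.0191 and -0.12 on control replicates 1, 2 and 3. For MCM2 to MCM7 all 3 additional NH4Cl arrays lay below the control mean in 6 of 6 genes, with medians of -2.43, -2.28 and -2.94 SDs. Control replicate 3 was the control array nearest to them, with a median of -0.953 SDs and 5 of 6 subunits below the control mean. Shares on single arrays over all rice probe sets or the 17905 genes are not given here. Of the 17905 genes 55.4% had a lower mean as deposited. After median centring 2 of the 53 genes did.

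Further probe sets were present for 11 of the 53 genes, 14 in all, each dimmer than the chosen one. As deposited 8 of the 14 pointed the same way as the chosen probe set. The second probe set of CDKE-1 stood out among them, at a level of 6.14 and a difference of -7191 (SE 2618, adjusted p of 0.417), without overlap, while the chosen one was at 3.16. A second probe set of CDKA-2, at a level of 5.41, lay wholly above control with 204 (SE 46.3, adjusted p of 0.244). For CYCD5-2 the second one, at 6.05, differed by -1.63 (SE 1.41). These pairs name the same gene and yet measured differences of unlike size.

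Other genes, called here other cell cycle genes, were taken by name. They were inhibitors of CDKs (KRP), retinoblastoma-related proteins (RBR), DNA polymerase and flap endonuclease subunits, and further cyclins. The list also held CDC25.1, CDC25.2, CKS1, RAD23 and TERT. Of 23 such genes 14 were lower and 9 higher as deposited, 4 lay wholly below control and 2 wholly above, and 1 passed as lower and 0 as higher in limma's test, with 3 lower and 1 higher at an unadjusted p under 0.05. Among the 17905 genes 14.2% lay wholly below control, 8.8% wholly above, and 0.0223% passed, so the counts without overlap lie near this background. The one that passed was TERT, the telomerase reverse transcriptase, at -8.55 (SE 0.237) (adjusted p of 0.0458 with limma). TERT was already known from earlier results of these data when the list was made, so its passing is no separate result about cell cycle genes. It stood at -167 after quantile normalization (adjusted p of 0.0216) but at 114 after median centring, at a level of 5.94 below the brightest reporter. KRP1, a CDK inhibitor with a level of 8.27, stood at 89.6, 121 and 61.3 with additional NH4Cl and at 8.93, 1.10 and -10.0 in control. All 3 additional NH4Cl arrays lay above control, with a difference of 90.7 (SE 18.2), or 4.07 SDs (adjusted p of 0.209). It was 222 after quantile normalization, where it did not pass either (adjusted p of 0.860 with limma). After median centring it was 213, a sign fixed in advance, since centring adds 123 millionths to every difference.

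RBR1, which restrains entry into DNA synthesis, was lower at -39.4 (SE 11.8) and POLD2, a subunit of DNA polymerase delta, at -15.1 (SE 4.59), both without overlap. They did not pass as deposited (adjusted p of 0.337 and 0.341), stayed negative after quantile normalization and were positive after median centring. CDC25.2, named after the phosphatase that activates CDKs in yeast, stood at -17.8 (SE 8.30) and CYCL1-1 at 19.4 (SE 10.02), also without overlap, and CDC25.2 was positive after quantile normalization as well as after median centring. The brightest of the 23, CDC25.1 and CYCT1-1, a partner of CDKC, stood at 20.8 (SE 41.5) and 42.6 (SE 41.4) with overlapping groups.

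After median centring 46 of 53 genes passed, 44 of them as higher, where 89.8% of all rice probe sets passed. After quantile normalization 5 of 53 passed (7.13% of all): MCM2, CYCB1-3 and CDKG-1 as lower, and MCM5 and ORC1 as higher. Among these MCM2 alone lay wholly below control as deposited, and MCM5, ORC1, CYCB1-3 and CDKG-1 overlapped there.

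**Figure D4:**
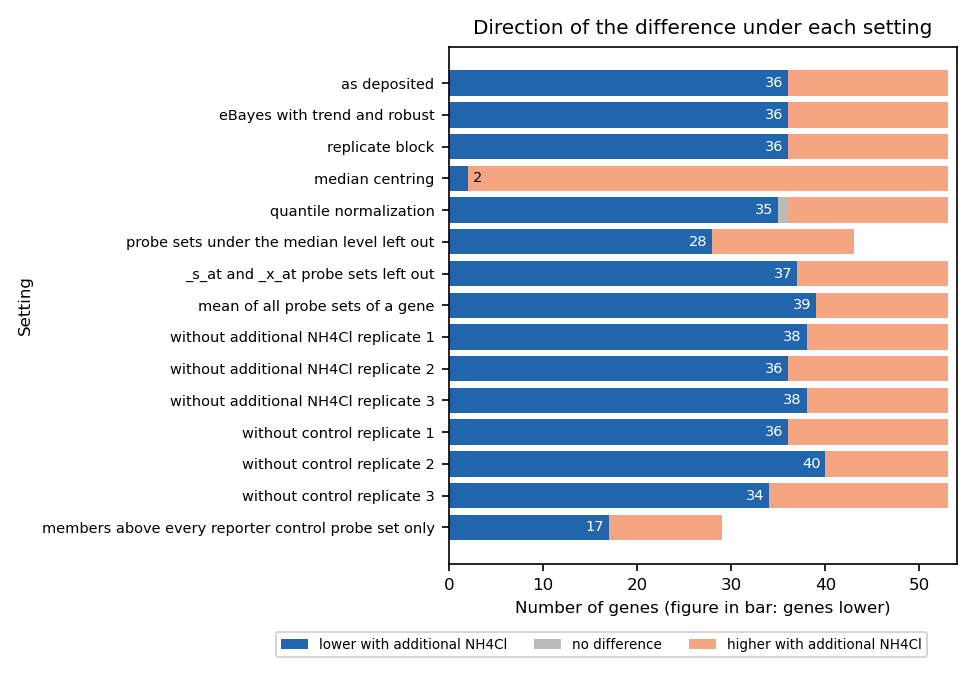
Stacked bars count the genes with a lower mean, no difference or a higher mean with additional NH4Cl (x axis) under each setting (y axis); the digit in or beside the blue part gives the number that were lower. It is 34 to 40 of 53 with any 1 array left out and 35 after quantile normalization, and 2 after median centring, which adds 123 millionths to every difference.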

How the data were processed

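The deposited table holds 1 value per probe set on each of 6 arrays, read as log2 from its range; the log base and how the authors summarized and normalized the probes were not given in the sources used here, and per the labels' protocols biotinylated cRNA was hybridized. Additional NH4Cl minus control was fitted on 57194 rice probe sets, without the 187 control probe sets and with no filter, using lmFit and eBayes of limma 3.58.1 (R 4.3.3) without a block. P-values are two-sided, adjusted by Benjamini-Hochberg over all of these, and called at 0.05. SEs are unmoderated. The limma fit was tested on simulated data, whose effect sizes and outcome are not given here. That test therefore does not show whether differences of the size seen in the listed genes could pass. As deposited, the largest of these in within-group SDs was -7.57, for RPA32C, which did not pass, while TERT passed at -29.5. Gene names came from the platform annotation, updated with a RefSeq gene table (ASM3414082v1), which left 22436 with 1 gene, 95 with more and 34663 unnamed here. Matching was by capitals, so rFCA was not read as RFC. Probe sets ending in _s_at or _x_at are called uncertain. Every gene is named with its difference, and array values are given for the brightest gene and that with the largest absolute t in each class; of other cell cycle genes, the 6 with the largest absolute t and the 2 brightest are named. Further genes, probe sets and markers were named after their values were seen. The genes and lists were chosen with earlier results of these data known. No duplicate arrays were found: no 2 shared more than 41 values. Promoter and protein sequences were not used here. The number of arrays limits the precision.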

Additional observations from a re-analysis of the deposited data

Results flagged for a closer look

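The hybridization spike-ins bioB, bioC, bioD and cre, bacterial and phage controls outside the comparison of rice genes, had a higher mean with additional NH4Cl in 27 of 27 probe sets. Their differences ran from 9.41 to 2366 millionths of a log2 unit with a median of 964, and in 0 of 27 did the groups lie apart. They exceed the differences of most genes described above, and their part in those differences was not tested. Groups of 3 arrays are too small for a test of single outlying arrays.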

How the results depend on the processing

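Rice probe sets called numbered 4 as deposited, 2 with trend and robust variances, 2 with the replicate block, 51354 after median centring, 4079 after quantile normalization, 32 without dim probe sets (those under the median level), 5 without uncertain ones, and 0 to 1 with 1 array left out. Genes of the list called numbered 0, except 46 after median centring and 5 after quantile normalization. Genes lower numbered 36 as deposited, 2 after median centring and 17 of 29 when counted only above the brightest reporter, an alternative chosen after seeing the data. With 1 array left out they ran from 34 to 40. Genes wholly below control numbered 16, then 1 after median centring, 6 of 29 above the brightest reporter, and 17 to 22 with 1 array left out. With 1 array left out the groups lie apart more easily, and the share over all rice probe sets in those runs is not given here. The median t was -0.88 as deposited, 4.35 after median centring and -1.46 to -0.54 with 1 array left out. Same-numbered arrays had deviations that correlated at -0.0616, 0.0449 and -0.0775. Differently numbered arrays reached 0.103, for additional NH4Cl replicate 3 and control replicate 1. These values show no pairing by number but cannot exclude a block shared by some arrays. The replicate block moved the count of calls from 4 to 2 and the median t to -0.89. The cause of sign changes after quantile normalization was not tested. Median centring adds the same 123 millionths to every difference by construction, where the median difference of all rice probe sets was 0.00567 millionths as deposited. Differences that changed sign, in millionths, were, after median centring: CDKA-1 70.3, CDKB2-1 97.5, CYCA2-1 116, CYCA3-2 100.3, CYCB1-1 113, CYCB2-1 113, CYCB2-2 119, CYCD2-2 107, CYCD3-1 122, CYCD4-2 121, CYCD5-1 122, CYCD6-1 111, PCNA 105, RFC1 80.5, RFC3 122, RFC4 121, RFC5 94.4, MCM2 45.5, MCM3 99.0, MCM4 117, MCM5 117, MCM6 119, MCM7 122, ORC1 121, ORC3 122, ORC4 118, CDKD-1 113, CDKF-4 105, RPA14 90.4, RPA32A 86.3, RPA32B 108, RPA32C 115, RPA70B 121, RPA70C 96.5. After quantile normalization they were: CDKA-2 -213, CYCB1-3 -48.9, CYCD3-2 -104, CYCD4-1 -233, CYCD5-1 12.7, CYCD5-2 253, RFC1 247, RFC2 -229, MCM4 5.73, MCM5 48.4, MCM6 13.9, MCM7 1.70, MCM9 -72.5, ORC1 79.3, CDKC-1 -45.2, CDKF-3 -5.79, CDKG-1 -454, CDKG-2 -721, RPA14 621, RPA70B 23.0. Without uncertain probe sets they were: CDKA-1 0.114, CDKA-2 -4.90, MCM8 -3.92. With the mean of a gene's probe sets they were: MCM8 -1.95, CDKE-1 -3594, CDKG-2 -10.6. With 1 array left out, 19 of 53 changed sign at least once, with ranges of: CDKA-2 -4.05 to 33.5, CDKD-1 -24.4 to 1.78, CDKE-1 -0.778 to 5.97, CDKF-1 -0.0308 to 0.213, CDKG-1 -13.2 to 17.0, CDKG-2 -49.7 to 116, CYCB1-3 -0.207 to 0.189, CYCD3-1 -4.82 to 8.68, CYCD4-1 -21.1 to 84.6, CYCD4-2 -3.70 to 2.00, CYCD5-1 -1.25 to 0.519, CYCD6-1 -24.4 to 2.22, MCM8 -0.980 to 0.998, MCM9 -0.642 to 0.574, ORC1 -3.77 to 0.334, ORC2 -2.60 to 2.83, RFC2 -48.2 to 120.3, RFC4 -4.60 to 0.472, RPA70A -1.70 to 3.59. CYCA1-4 and CYCD5-3 kept their sign under every alternative run, and so did ORC5 except without dim probe sets, where it had no value. Signal near the reporter level limits what the dim genes can show.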
